A study of Mus musculus with 12 samples.

Results

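The iNKT17 program, taken here as the set of genes whose level differs between iNKT17 cells and ROR- cells, was compared between the BALB/c and B6 mouse strains on 10 of the 12 arrays of the series. The arrays came from 4 groups that carry no other label than strain and cell phenotype. The iNKT17 cells and the ROR- cells each have 3 arrays from BALB/c mice and 2 from B6 mice. The labels give no organ, age, sorting gate, genotype or treatment for any group. They name frozen tissue as the source of the RNA, and whether a replicate is a separate animal is not stated. The p-values below therefore set differences between groups only against the spread of arrays within groups, part of which could be technical.

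Invariant natural killer T cells, or iNKT cells, recognise lipids presented by CD1d through a semi-invariant receptor, and they leave development already committed to an effector fate. The iNKT17 subset makes interleukin 17, whereas the other subsets include iNKT1 cells, which carry T-bet, NK receptors and cytotoxic genes, and iNKT2 cells, which make interleukin 4. The strains are known to differ in how many cells of each subset they hold, with BALB/c mice rich in iNKT2 cells and B6 mice rich in iNKT1 cells. In bulk samples such as these, fewer cells of a type and less RNA per cell cannot be told apart.

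For each gene the gap was iNKT17 minus ROR- on the log2 scale within a strain, and the interaction was the BALB/c gap minus the B6 gap. A strain difference shared by both cell types cancels in the interaction. For a gene that is lower in iNKT17 cells, a positive interaction means a smaller fall in BALB/c; for a gene that is higher in iNKT17 cells, it means a larger rise in BALB/c. Of 22180 named genes, 16516 exceeded the dim level, a log2 intensity of 3.44, on at least 2 arrays and were tested. A gap against a group below that level is of uncertain size, and 1745 of the tested genes had such a group.

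The iNKT17 label matched its defining genes on these arrays. Il23r, the interleukin 23 receptor, stood at 10.25, 9.89 and 10.27 on the BALB/c iNKT17 arrays and at 9.996 and 9.53 on the B6 iNKT17 arrays. On the ROR- arrays it stood at 3.05, 7.0 and 3.37 in BALB/c and at 2.93 and 3.67 in B6. Il17a, the interleukin 17A gene, was higher in BALB/c iNKT17 cells by 1.64 ± 0.38 log2 units (SE, limma adjusted p = 0.025; 0.058 without BALB/c ROR- replicate 2, which ends the call), and its gap in B6 was 1.22 ± 0.47 (adjusted p = 0.20). Cd3e, a T cell receptor subunit, stood between 11.30 and 11.75 on all 10 arrays.

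BALB/c ROR- replicate 2 stood apart from the other ROR- arrays for type 17 genes. Its values for Il23r (7.0), Il1r1 (7.0), Blk (7.43) and Abi3bp (6.38) lay above those of both other BALB/c ROR- arrays, whose highest values for these genes were 3.37, 5.25, 5.22 and 4.03. The mean of the 20 tested type 17 surface genes was 7.13 on that array, while replicates 1 and 3 of the group had 6.44 and 6.36. The type 17 lists and several of their genes are also given without it.

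Most of the iNKT17 program ran the same way in both strains. The gap was called, at a limma adjusted p under 0.05, for 1153 genes in BALB/c (6.98% of those tested) and for 991 in B6 (6.0%). In BALB/c 655 genes rose and 498 fell in iNKT17 cells, and in B6 457 rose and 534 fell. The 690 genes called in both strains all moved in 1 direction, and 0 were called in opposite directions. A call in one strain alone (463 genes in BALB/c, 301 in B6) does not show a strain difference, because the interaction itself was called for 13 genes (0.0787%), 9 positive (0.0545%) and 4 negative (0.0242%). Without 1 B6 array the B6 count lay between 516 (without B6 ROR- replicate 1) and 630 (without B6 ROR- replicate 2), with 592 and 562 without B6 iNKT17 replicates 1 and 2. The BALB/c count dropped to 747 when iNKT17 replicate 3 of that strain was left out.

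To tell genes that kept their gap from genes that could not be resolved, the 95% interval of the interaction was read for the 521 genes with a mean gap of at least 2-fold over both strains (3.15% of the genes tested; 244 or 1.48% higher and 277 or 1.68% lower in iNKT17 cells). In 198 of them (38.0%) the whole interval lay inside a 2-fold difference between strains, so that the gap was kept within that bound. In 131 (25.1%) the interval excluded 0, 8 of which also lay inside the 2-fold bound, and 200 were unresolved. These intervals are not adjusted for the number of genes.

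Of the 521 genes, 520 had gaps of the same sign in both strains, which their choice by the mean gap over both strains favours. Over all 16516 tested genes 11125 had the same sign. Among the 131 whose interval excluded 0, 80 were lower in iNKT17 cells, and 65 of these had the larger fall in B6 against 15 in BALB/c. Of the 51 that were higher in iNKT17 cells, 35 had the larger rise in B6 and 16 in BALB/c. These counts include BALB/c ROR- replicate 2. Without it 128 intervals excluded 0, and their split by strain is not given here. The strains themselves parted, at an adjusted p under 0.05, in ROR- cells alone for 38 of the 131 genes, in iNKT17 cells alone for 28, in both cell types for 3 and in neither for 62.

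**Figure D1:**
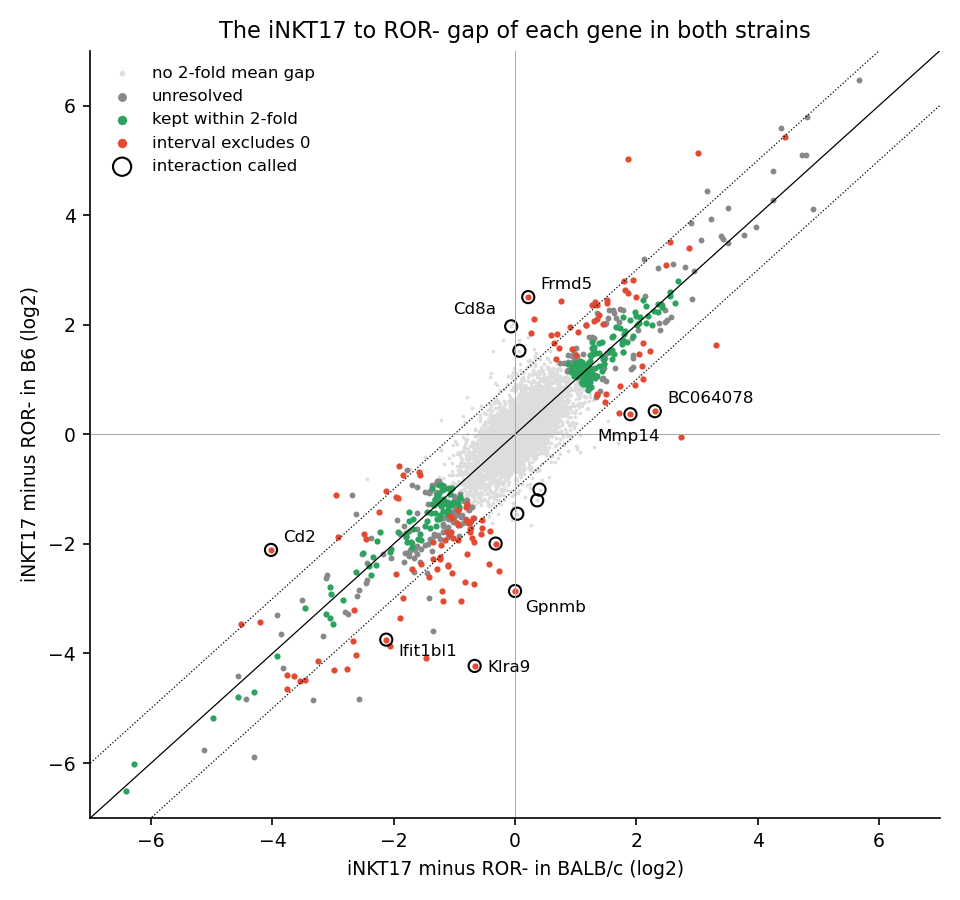
Each of the 16516 tested genes is placed by its iNKT17 minus ROR- gap in BALB/c (horizontal, log2) and in B6 (vertical, log2); the solid line marks equal gaps and the dotted lines a 2-fold difference between strains. Genes kept within 2-fold (198, less the 8 whose interval also excludes 0, which are drawn red) lie along the solid line, and the 13 genes with a called interaction, circled, lie outside or at the edge of the cloud.

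The 13 called genes fell into sets by the group in which they stood apart. In 6 of them, Gpnmb, Klra9, Klri2, Ifit1bl1, Sult5a1 and Fcrl1, B6 ROR- cells were higher than every other group. In Mmp14 and BC064078 BALB/c iNKT17 cells were the high group, in Cd8a, Frmd5 and Rnase6 B6 iNKT17 cells were, and in Cd2 BALB/c iNKT17 cells were the low group. Serpinb6b differed by strain in both cell types, in opposite directions.

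Gpnmb, a transmembrane glycoprotein of lysosomes and related organelles, had a gap in B6 and none was called in BALB/c. Its level was 7.20 and 7.39 on the B6 ROR- arrays, against 4.59 and 4.29 in B6 iNKT17 cells, 3.99, 3.71 and 3.44 in BALB/c ROR- cells and 3.86, 3.84 and 3.44 in BALB/c iNKT17 cells. The B6 ROR- arrays did not overlap any other group, while the BALB/c groups overlapped each other. It fell by 2.86 log2 units in B6 iNKT17 cells (limma adjusted p = 2.07e-05), the BALB/c gap was -0.00 (adjusted p = 1.0), and the interaction was 2.86 ± 0.27 (SE, adjusted p = 0.0089).

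Klra9, a Ly49 family receptor of natural killer (NK) cells, followed the same order. It stood at 6.87 and 6.95 in B6 ROR- cells, and no array of the other groups exceeded 3.62. Its interaction was 3.56 ± 0.43 (adjusted p = 0.017), with the means of both BALB/c groups and of B6 iNKT17 cells below the dim level. The Ly49 gene cluster is known to differ in gene content and sequence between these strains, and how well the probes read BALB/c transcripts was not tested.

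Klri2, a lectin-like receptor that pairs with Klre1, was at 5.06 and 5.07 in B6 ROR- cells and at most at 3.44 elsewhere (interaction 1.67 ± 0.24, adjusted p = 0.040). Ifit1bl1, of the interferon-induced IFIT family, fell in iNKT17 cells of both strains, by 2.12 log2 units in BALB/c mice and by 3.75 in B6 mice. Its ROR- arrays read 3.99, 4.09 and 3.90 in BALB/c and 6.25 and 5.89 in B6, with both iNKT17 groups below the dim level (interaction 1.62 ± 0.20, adjusted p = 0.017). Sult5a1, a sulfotransferase gene, and Fcrl1, an Fc receptor-like gene best known from B cells, had lower levels. Sult5a1 was at 4.57 and 4.77 in B6 ROR- cells and between 3.14 and 3.66 elsewhere, and Fcrl1 was at 5.17 and 5.20 against 4.11 to 4.81 elsewhere. Their interactions were 1.49 ± 0.21 and 1.41 ± 0.20 (both adjusted p = 0.040).

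Serpinb6b, a clade B serpin, crossed over between strains. It read 5.50, 5.48 and 5.35 in BALB/c ROR- cells and 5.80, 5.82 and 5.81 in BALB/c iNKT17 cells, but 6.12 and 6.33 in B6 ROR- cells and 4.94 and 5.10 in B6 iNKT17 cells. Its interaction was 1.57 ± 0.17 (adjusted p = 0.013), with a fall of 1.21 in B6 (adjusted p = 2.64e-04) and a BALB/c gap of 0.36 (adjusted p = 0.077). No array of its 4 groups overlapped those of another.

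Mmp14, a membrane-bound matrix metalloproteinase, rose in BALB/c iNKT17 cells. It was at 6.41, 6.41 and 6.42 there, against 4.35, 4.59 and 4.59 in BALB/c ROR- cells, 4.17 and 4.29 in B6 iNKT17 cells and 3.78 and 3.94 in B6 ROR- cells. The BALB/c gap was 1.90 (adjusted p = 2.59e-06), the B6 gap 0.37 (adjusted p = 0.19) and the interaction 1.53 ± 0.17 (adjusted p = 0.016). BC064078, a clone-named gene named here after its value was seen, had the same order, with 8.82, 8.72 and 9.19 in BALB/c iNKT17 cells and at most 6.79 elsewhere (interaction 1.88 ± 0.25, adjusted p = 0.029).

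In B6 iNKT17 cells Frmd5, a FERM domain protein, was at 7.38 and 6.80, and no array of the other groups exceeded 4.80. Its interaction was -2.29 ± 0.28 (adjusted p = 0.017). Cd8a, the alpha chain of the CD8 coreceptor, was at 6.74 and 6.73 in B6 iNKT17 cells and between 4.59 and 5.28 elsewhere (interaction -2.03 ± 0.20, adjusted p = 0.0089). Its partner chain gene Cd8b1 had means of 6.0 in BALB/c and 5.98 in B6 iNKT17 cells against 5.29 and 5.01 in ROR- cells. Rnase6, a secreted ribonuclease, was at 5.98 and 5.72 in B6 iNKT17 cells and between 4.15 and 4.39 elsewhere (interaction -1.45 ± 0.18, adjusted p = 0.017).

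Cd2, an adhesion receptor of T and NK cells, was the called gene whose gap was larger in BALB/c among those lower in iNKT17 cells. Its ROR- arrays were level, at 9.49, 9.49 and 9.39 in BALB/c and 9.66 and 9.59 in B6, while its iNKT17 arrays were at 5.79, 5.27 and 5.25 in BALB/c and 7.54 and 7.49 in B6. Cd2 fell by 4.02 in BALB/c and by 2.11 in B6 (interaction -1.91 ± 0.23, adjusted p = 0.017). The fall was thus called in both strains and differed in size.

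**Figure D2:**
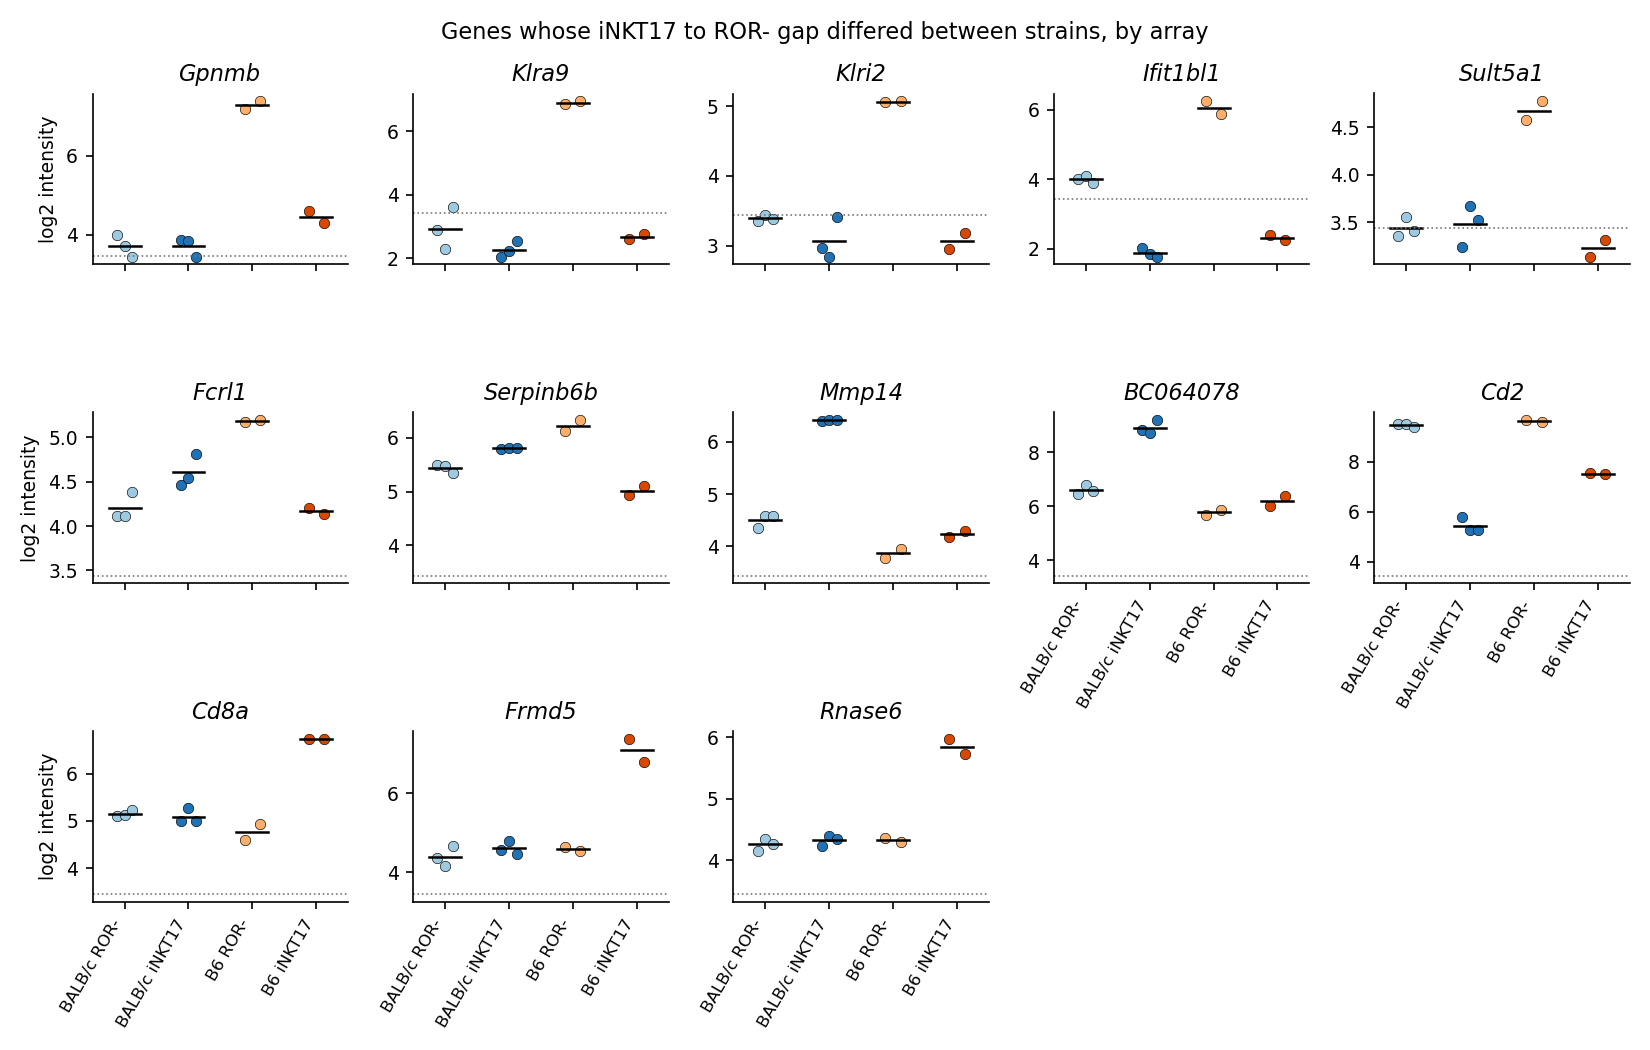
Log2 intensity of the 13 genes with a called interaction on each of the 10 arrays, with the group mean as a bar and the dim level of 3.44 as a dotted line. Vertical axes differ between panels and do not start at 0; B6 ROR- cells (light orange) stand apart in the upper row, and an iNKT17 group stands apart in the panels from Mmp14 on.

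These calls rest on few arrays. The count of called interactions was 0 without B6 ROR- replicate 1 and without B6 iNKT17 replicate 2, 1 without B6 ROR- replicate 2 and without BALB/c iNKT17 replicate 3, and 2 without B6 iNKT17 replicate 1, although no estimate of the 13 changed sign under any of 19 alternatives.

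The promoter sequences of 4 called genes are shown because they stand for the patterns above: Gpnmb and Klra9 for B6 ROR- cells, Mmp14 for BALB/c iNKT17 cells and Frmd5 for B6 iNKT17 cells. Each is the 250 bases before the gene's start in RefSeq on GRCm38.p6, the C57BL/6J reference, on the gene's own strand, so the BALB/c sequence is not shown. Capitals mark matches on either strand to AGGTCA (a nuclear receptor core), GGTGTGA (a T-box core) or TGTGGT (a RUNX core), motifs of factors that shape these subsets. Gpnmb lies at chr6:49036268-49036517 (plus strand), Klra9 at chr6:130193113-130193362 (minus), Mmp14 at chr14:54431348-54431597 (plus) and Frmd5 at chr2:121807058-121807307 (minus).
Gpnmb: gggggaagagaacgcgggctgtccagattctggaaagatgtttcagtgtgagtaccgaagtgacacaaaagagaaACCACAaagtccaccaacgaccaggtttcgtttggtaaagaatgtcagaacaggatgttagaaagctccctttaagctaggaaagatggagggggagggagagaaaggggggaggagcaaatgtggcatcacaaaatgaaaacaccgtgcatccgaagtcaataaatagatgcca
Klra9: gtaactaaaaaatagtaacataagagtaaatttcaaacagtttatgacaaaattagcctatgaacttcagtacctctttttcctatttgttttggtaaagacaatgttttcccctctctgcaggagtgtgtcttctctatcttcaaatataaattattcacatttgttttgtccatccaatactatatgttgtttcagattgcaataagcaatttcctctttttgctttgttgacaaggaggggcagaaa
Mmp14: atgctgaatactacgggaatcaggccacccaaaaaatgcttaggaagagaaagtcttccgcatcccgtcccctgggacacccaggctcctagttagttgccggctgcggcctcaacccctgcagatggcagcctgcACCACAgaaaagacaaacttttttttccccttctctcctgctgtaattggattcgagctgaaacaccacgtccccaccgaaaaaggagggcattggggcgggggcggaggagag
Frmd5: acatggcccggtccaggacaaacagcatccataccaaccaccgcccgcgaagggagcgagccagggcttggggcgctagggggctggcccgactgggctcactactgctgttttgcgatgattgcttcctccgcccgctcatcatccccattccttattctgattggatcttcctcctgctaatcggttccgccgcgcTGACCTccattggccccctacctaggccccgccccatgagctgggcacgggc

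Of the 10 called genes matched to a promoter, 1 held AGGTCA (Frmd5), 3 held TGTGGT (Gpnmb, Mmp14 and Ifit1bl1) and 0 held GGTGTGA. Among all 27025 promoters of this length the shares were 13.8%, 14.2% and 3.31%. A match describes the letters of this window and nothing about the factor.

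Beyond the called genes, the functions were described by 45 lists, each read through its gaps in both strains, through the unadjusted interaction p of its members and through the median interaction. Over all tested genes 410 (2.48%) had a positive and 279 (1.69%) a negative interaction at an unadjusted limma p under 0.05, and the median interaction was 0.02. Over all tested genes 3.97% rose and 3.02% fell in BALB/c, and 2.77% rose and 3.23% fell in B6.

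The gap of the type 17 receptors was of like size in both strains, though few of them could be bounded within 2-fold. Of 20 tested receptors and surface proteins, 17 rose in BALB/c and 14 in B6, against 3.97% and 2.77% of all genes. In either strain 0 fell, and 14 were called in both. The list was chosen with earlier results of these data known, which favours such counts, so they only describe the list. The median gap was 2.09 in BALB/c and 2.06 in B6, with a median interaction of 0.17. On single arrays the list mean was 8.85, 8.70 and 9.03 in BALB/c and 8.76 and 8.43 in B6 iNKT17 cells, against 6.36 to 7.13 in ROR- cells, so that iNKT17 and ROR- arrays did not overlap and the iNKT17 arrays of the strains did. Without BALB/c ROR- replicate 2 the median interaction was 0.38 and the BALB/c count stayed at 17.

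Among these receptors Il17re, part of the receptor for interleukin 17C, was kept within 2-fold. It was at 6.48, 6.72 and 6.78 in BALB/c and 6.52 and 6.47 in B6 iNKT17 cells, against 4.24 to 4.85 in ROR- cells, and its interaction was -0.16 (95% interval -0.61 to 0.28). Itgae, the CD103 integrin chain that holds lymphocytes in epithelia, was kept as well, with gaps of 1.16 and 1.0. Ccr6, the chemokine receptor that draws type 17 cells to barrier tissue, rose by 2.14 in BALB/c and 2.53 in B6, and its interval of -1.23 to 0.45 just passed the 2-fold bound. Il23r, Il1r1 and Abi3bp had gaps of 4 log2 units or more in both strains, but their intervals were wide with all arrays, -3.64 to 2.03 for Il23r, -2.64 to 0.23 for Il1r1 and -2.21 to 1.47 for Abi3bp. Without BALB/c ROR- replicate 2 they were -0.34 to 1.27 for Il23r, -1.06 to -0.09 for Il1r1, which then excluded 0, and -0.27 to 1.12 for Abi3bp. Ltb4r1, a leukotriene B4 receptor, had an interval above 0 (0.11 to 1.04), with a rise of 2.04 in BALB/c and 1.47 in B6. Cd163l1, a scavenger receptor of gamma-delta T cells, had another (0.04 to 1.21), with gaps of 1.36 and 0.73.

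Of 8 type 17 cytokine genes 3 rose in BALB/c and 2 in B6 (3.97% and 2.77% of all genes). Il22 was called in both strains, with gaps of 4.81 and 5.79 and both ROR- group means below the dim level. Csf2, the GM-CSF gene, rose by 1.54 in BALB/c and 2.13 in B6. Among 15 type 17 transcription factors, 4 rose and 1 fell in BALB/c and 3 rose and 2 fell in B6. The shares over all genes were 3.97% rising and 3.02% falling in BALB/c, and 2.77% and 3.23% in B6. Maf rose by 1.92 and 1.75 and Ahr, the aryl hydrocarbon receptor, by 1.30 and 1.75. None of the 23 genes of these 2 lists had an interaction p under 0.05 (4.17% of all genes), and none did without BALB/c ROR- replicate 2. Without that array 2 cytokine genes rose in BALB/c, since Il17a was no longer called, and the median interaction of the cytokines went from -0.03 to 0.07. The Il22 gap in BALB/c was then 6.02 in place of 4.81. The transcription factor counts in BALB/c stayed at 4 and 1, with a median interaction of 0.20 in place of 0.14.

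Most of the called genes of T cell receptor signalling and of the type 1 and type 2 fates fell. Of 36 genes of the receptor complex and its proximal signalling, 9 fell and 3 rose in BALB/c and 11 fell and 3 rose in B6, where 3.02% and 3.23% of all genes fell. Of the 10 with a 2-fold mean gap 6 were kept, against 38.0% of all genes with such a gap. Cd5, a brake on receptor signalling, fell by 1.33 and 1.28, with levels of 9.86, 9.96 and 9.61 in BALB/c ROR- and 8.48, 8.41 and 8.55 in BALB/c iNKT17 cells. In B6 the same gene was at 9.89 and 9.66 against 8.64 and 8.35, so the arrays of the strains overlapped within each cell type. Txk, a Tec family kinase, and Trat1, a receptor-associated adaptor, were kept too, with interactions of 0.18 and -0.31. Among the genes that respond to receptor signals, 7 of 29 fell in BALB/c and 9 in B6 (3.02% and 3.23% of all genes); Myc fell by 1.80 and 1.85, and Pdcd1, the PD-1 gene, rose by 2.63 and 2.40. Cd5, Myc, Pdcd1 and Spry2, a feedback inhibitor of growth signals, were the 4 kept of the 9 with a 2-fold mean gap in that list, a share near the 38.0% over all such genes.

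Of 9 type 1 transcription factors 2 fell in BALB/c, and 3 fell and 1 rose in B6. Of 11 type 1 cytokines and receptors 5 fell and 2 rose in BALB/c, and 6 fell and 1 rose in B6. Over all genes 3.02% fell and 3.97% rose in BALB/c, and 3.23% and 2.77% in B6. The second list had median gaps of -0.54 and -0.96 and a median interaction of 0.30. Of its 6 genes with a 2-fold mean gap 1 was kept. In 2 the interval excluded 0, both with the larger fall in B6. Some falls were large in both strains. Tbx21, which encodes T-bet, fell by 2.60 in BALB/c and 2.95 in B6, and Cxcr3, a chemokine receptor under T-bet control, by 3.06 and 3.36. Cxcr3 was kept within 2-fold (interval -0.34 to 0.94), while Tbx21 was not resolved (-0.45 to 1.15). Ifng, the interferon gamma gene, fell in both strains, but its BALB/c ROR- arrays ran from 5.54 to 8.82 and its interval from -2.85 to 2.41.

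Of 14 type 2 genes 5 fell in BALB/c and 8 in B6 (3.02% and 3.23% of all genes), with median gaps of -0.57 and -1.32 and a median interaction of 0.25. Of the 8 with a 2-fold mean gap 2 were kept, 5 were unresolved and 1 had an interval that excluded 0, against 38.0% kept over all genes with such a gap. Without BALB/c ROR- replicate 1 the members with a positive interaction p under 0.05 went from 1 to 5. Among the kept genes Il4 fell by 1.25 in BALB/c and 1.08 in B6, with an interval of -0.66 to 0.31, and Izumo1r, a folate receptor-like gene, by 3.12 and 3.27. The gene whose interval excluded 0 was Ccr4, a type 2 chemokine receptor, at 7.23, 7.01 and 7.25 in BALB/c iNKT17 cells and 5.87 and 5.75 in B6 iNKT17 cells. Its ROR- arrays overlapped between strains, at 7.10 to 7.96 in BALB/c and 7.46 and 7.70 in B6, and its interaction was 1.35 ± 0.31 (adjusted p = 0.31).

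**Figure D3:**
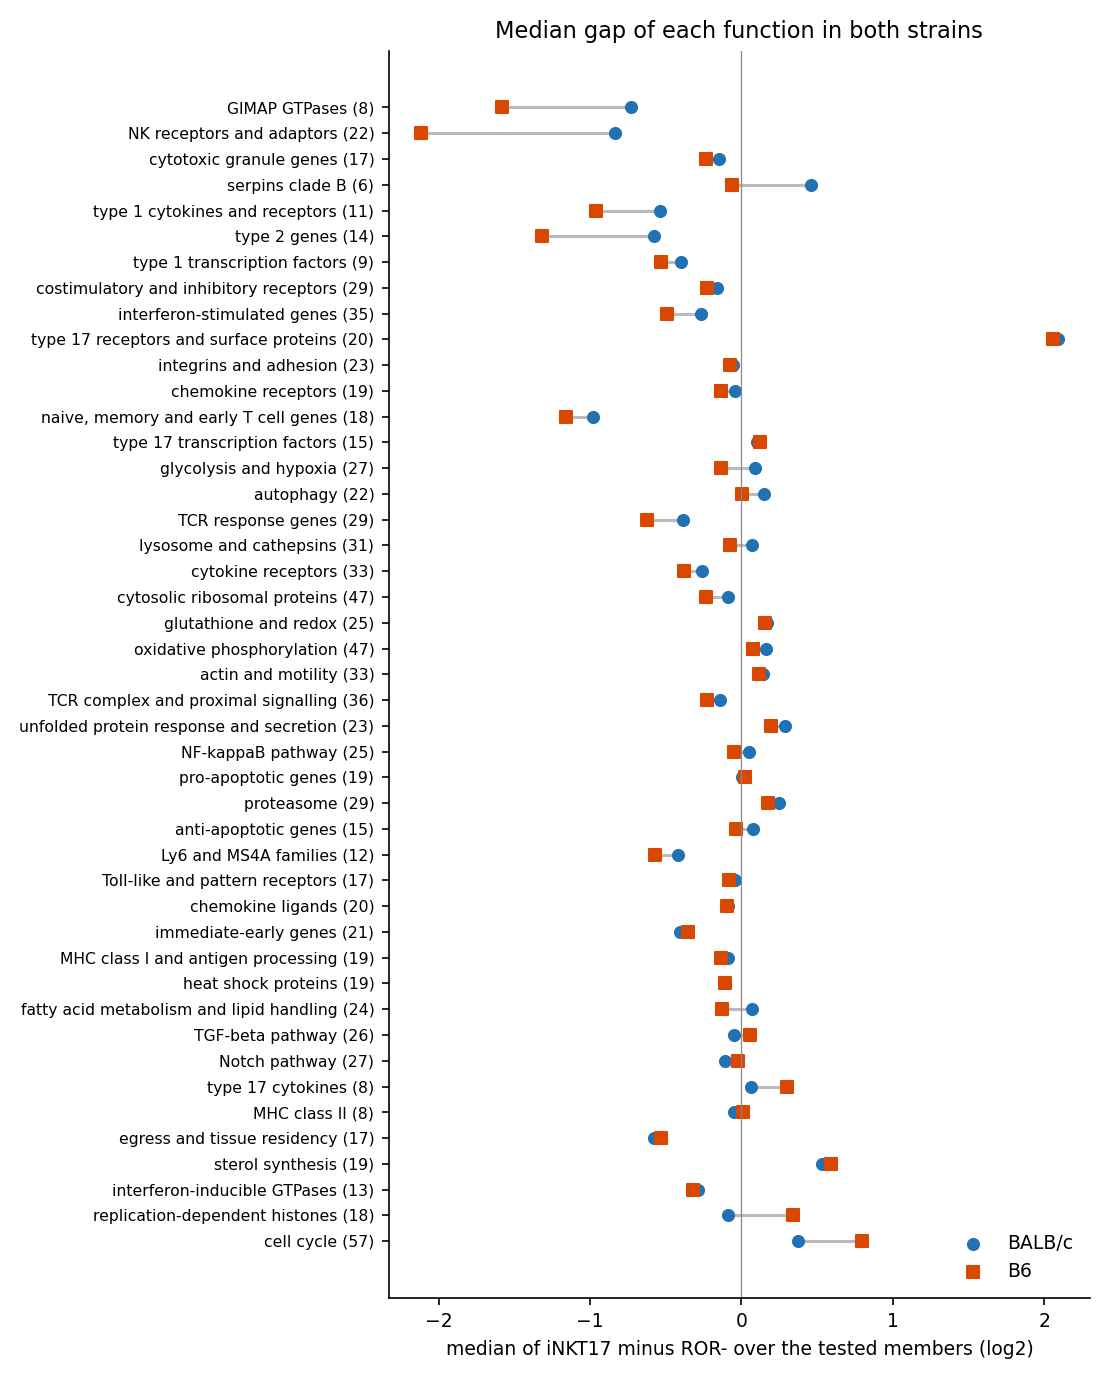
Median iNKT17 minus ROR- gap over the tested members of each of the function lists with at least 6 tested genes (number in brackets), in BALB/c (circles) and B6 (squares), ordered by median interaction. The type 17 surface list has its symbols together near 2 log2 units, while those of the NK receptors and the GIMAP GTPases lie furthest apart among lists with a fall in both strains.

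The NK receptors had a smaller measured gap in BALB/c than in B6, and how well the probes read their BALB/c transcripts was not tested. These receptors and their adaptors mark iNKT1 cells, where they set the threshold for activation and killing. Of 22 tested members 11 fell and 1 rose in BALB/c, and 14 fell and 2 rose in B6, with 12 called in both strains. The shares over all genes were 3.02% falling and 3.97% rising in BALB/c, and 3.23% and 2.77% in B6. The median gap was -0.83 in BALB/c and -2.12 in B6. An interaction p under 0.05 was reached by 10 members on the positive side and 1 on the negative, against 2.48% and 1.69% of all genes, and the median interaction was 0.49. Of the 15 members with a 2-fold mean gap, 10 had an interval that excluded 0 and 3 were kept within 2-fold.

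The strain difference of this list was larger in the ROR- cells. The list mean was 7.07 and 6.99 on the B6 ROR- arrays and 6.07, 6.10 and 6.13 on the BALB/c ROR- arrays, which did not overlap. The iNKT17 arrays of the strains did not overlap either, but lay closer, at 4.82 and 4.77 in B6 and 4.66, 4.56 and 4.62 in BALB/c. In ROR- cells 9 members were lower in BALB/c and 0 higher (0.89% and 0.363% of all genes), and in iNKT17 cells 2 were lower and 0 higher (0.708% and 0.642%). Leaving out 1 array at a time gave 8 to 10 positive members and a median interaction between 0.40 and 0.61.

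Klre1, a lectin-like receptor that forms pairs with Klri1 and Klri2, was at 7.32 and 7.30 in B6 ROR- cells and at 4.51, 4.73 and 5.87 in BALB/c ROR- cells. The iNKT17 arrays lay between 3.22 and 3.65, so the ROR- arrays were the higher ones in both strains and higher in B6. Its interaction was 2.61 ± 0.44, and Klrb1c, which encodes the antigen by which NK1.1 antibodies recognise B6 NK cells, followed with 2.23 ± 0.39. Klrb1c was at 8.06 and 7.59 in B6 ROR- cells and at 5.47 to 5.68 in BALB/c ROR- cells, where it overlapped the iNKT17 arrays of 4.73 to 5.90. Its BALB/c gap was -0.26 (adjusted p = 0.67), and it fell by 2.49 in B6 (adjusted p = 5.47e-04).

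Klrc2, the activating NKG2C chain, had an interaction of 1.48 ± 0.27, with 5.36 and 4.78 in B6 ROR- cells and 3.40, 3.5 and 3.92 in BALB/c ROR- cells. The adaptors that carry signals from such receptors followed. Fcer1g was at 8.95 and 8.95 in B6 ROR- cells against 7.35, 7.65 and 7.05 in BALB/c ROR- cells, and at 4.32 to 4.74 in iNKT17 cells. It fell by 2.98 in BALB/c and by 4.29 in B6 (interaction 1.32 ± 0.23). Tyrobp, the DAP12 adaptor, had gaps of -1.24 and -2.24 and an interaction of 1.0 ± 0.40.

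Some members of the same list kept their gap. Klrd1, the CD94 chain that pairs with the NKG2 receptors, fell by 6.41 in BALB/c and by 6.51 in B6. Its ROR- arrays lay between 9.90 and 10.42 and its iNKT17 arrays between 3.48 and 3.92 in both strains, with an interaction of 0.10 (interval -0.33 to 0.53). The Ly49 gene Klra5 was lower by 6.29 and 6.01 and Cd160, a receptor for HVEM, by 1.0 and 1.25, and both were kept. The Klrd1 partners Klrc1 and Klrk1 fell in both strains, Klrc1 by 3.76 and 4.65 and Klrk1 by 3.64 and 4.41. Their intervals, 0.04 to 1.73 and 0.04 to 1.5, just excluded 0.

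Klrb1b, an inhibitory receptor of the NKR-P1 family, went the other way. It stood at 7.92 and 7.92 in B6 iNKT17 cells and 6.90 and 6.72 in B6 ROR- cells, against 3.37 to 3.83 on all BALB/c arrays. Its interaction of -1.1 ± 0.24 (adjusted p = 0.26) joined a rise of 1.11 in B6 to a BALB/c signal near the dim level. Klrb1f rose in both strains, by 1.94 and 1.44. In the NK list 9 of 22 members had a group mean below the dim level, and apart from Klra9 and Klri2 no member passed the adjusted threshold of the interaction.

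**Figure D4:**
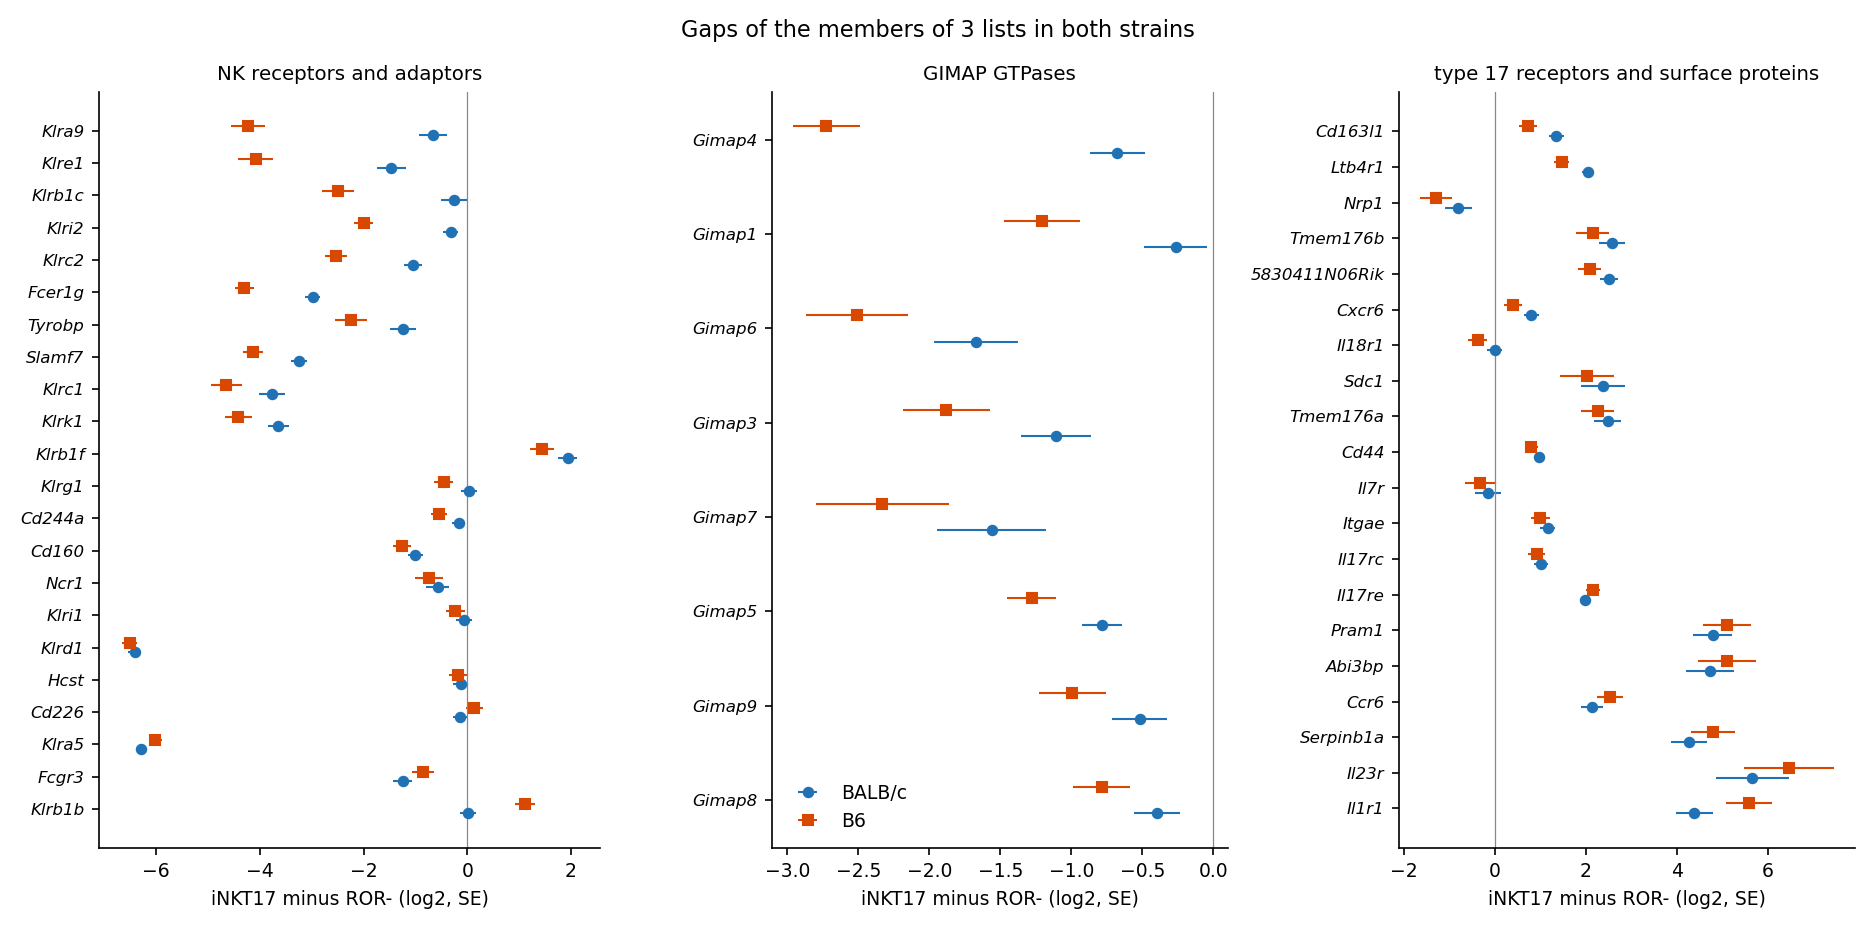
Gap of each tested member (iNKT17 minus ROR-, log2, with SE) in BALB/c (circles) and B6 (squares) for the NK receptors, the GIMAP GTPases and the type 17 surface proteins, ordered within each panel by interaction. In the NK panel the squares lie left of the circles for the upper 10 members, in the GIMAP panel for all 8, and in the type 17 panel the symbols of most members overlap within their errors.

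Cytotoxic granule genes showed a difference of the same sign, with a median interaction of 0.49, like that of the NK list. Of 17 members 4 fell and 2 rose in BALB/c and 7 fell and 0 rose in B6, against 3.02% and 3.97% of all genes in BALB/c and 3.23% and 2.77% in B6. An interaction p under 0.05 was positive for 5 and negative for 0, against 2.48% and 1.69% of all genes. The median gap was small, -0.15 and -0.23, since members such as Gzmb (granzyme B), Prf1 (perforin) and Srgn (serglycin) had gaps between -0.23 and 0.50 that were not called. The list mean was 7.67 and 7.83 in B6 ROR- cells, 7.48, 7.16 and 6.99 in BALB/c ROR- cells and 6.44 to 6.59 in iNKT17 cells. Without BALB/c ROR- replicate 1, whose list mean was the highest of its group, 9 members had a positive p under 0.05.

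Gzmc, granzyme C, was at 9.76 and 9.61 in B6 and 8.89, 8.29 and 8.44 in BALB/c ROR- cells, against 6.25 to 6.87 in iNKT17 cells. It fell by 3.35 in B6 and by 1.90 in BALB/c (interaction 1.45 ± 0.26). Fasl, the Fas ligand gene, which is also on the type 1 list, fell by 4.03 and 2.62 (interaction 1.41 ± 0.35, adjusted p = 0.44). Nkg7, a granule membrane protein, fell by 4.71 in B6 and 4.30 in BALB/c and was kept at the bound (interval -0.18 to 1.0). Gzma had the widest interval, -0.21 to 4.71, because its BALB/c ROR- arrays read 7.44, 4.46 and 5.0.

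The mean of the markers of conventional NK and CD8 T cells had the group order of these lists, with which they share members. Their part in the result was not tested. The mean of the 13 tested markers was 6.13 and 6.32 in B6 ROR- cells, 5.19 to 5.56 in BALB/c ROR- cells and 4.29 to 4.51 in iNKT17 cells. They share 9 genes with the NK and cytotoxic lists. In ROR- cells 4 of the 13 were lower in BALB/c and 0 higher (0.89% and 0.363% of all genes). The means in ROR- cells, BALB/c before B6, were 9.78 and 10.70 for Nkg7, 7.35 and 8.95 for Fcer1g, 6.33 and 6.91 for Tyrobp and 5.63 and 7.83 for Gzma. They were 5.75 and 5.81 for Prf1, 4.38 and 4.34 for Ncr1, the NKp46 gene, 4.24 and 4.40 for Klrg1, and 4.02 and 3.90 for Eomes, a T-box factor of conventional NK cells. Eomes, Cd8a, Cd8b1 and Khdc1a are the markers on neither of the NK and cytotoxic lists. In the same order, Cd8a had 5.15 and 4.76, Cd8b1 5.29 and 5.01 and Khdc1a 3.32 and 3.61. The listed markers thus differed among themselves in whether B6 ROR- cells were higher.

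The GIMAP GTPases, which support the survival of resting lymphocytes, had a smaller median gap in BALB/c, and the strains stood apart in the iNKT17 cells. All 8 genes fell in B6 and 4 in BALB/c, against 3.23% and 3.02% of all genes, with median gaps of -1.58 and -0.73. The interaction was positive in sign for each of the 8, from 0.39 to 2.05, with a median of 0.77. At a p under 0.05 there were 3 members, against 2.48% of all genes on the positive side. The ROR- arrays overlapped between strains, with list means of 8.70, 8.98 and 8.82 in BALB/c and 8.84 and 8.60 in B6. The iNKT17 arrays did not: 8.23, 7.58 and 8.06 in BALB/c and 7.28 and 6.73 in B6.

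Gimap4 carried the largest difference. It was at 10.03, 9.72 and 9.94 in BALB/c iNKT17 cells and at 8.41 and 7.60 in B6 iNKT17 cells, with all ROR- arrays between 10.36 and 10.77. It fell by 2.73 in B6 (adjusted p = 5.64e-05), its BALB/c gap was -0.68 (adjusted p = 0.067), and the interaction was 2.05 ± 0.31 (adjusted p = 0.051). Gimap1 followed with 0.94 (interval 0.17 to 1.71), and Gimap5, whose loss is known to deplete T cells, with 0.49 (interval 0.01 to 0.98). Gimap3, Gimap6 and Gimap7 fell in both strains and were not resolved.

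The GIMAP result depended on single B6 arrays. Without B6 iNKT17 replicate 2, the array with the lowest list mean, the median interaction was 0.41 with 1 member at a p under 0.05, and without B6 iNKT17 replicate 1 it was 1.1 with 5. Without B6 ROR- replicate 1 there was 1 such member, and without BALB/c iNKT17 replicate 2 there were 6. The cell cycle level ran opposite to the GIMAP level within groups. Its list mean was 8.36 on B6 iNKT17 replicate 2 and 7.54 on BALB/c iNKT17 replicate 2, each the highest of its group, where the GIMAP mean was the lowest. The same held in ROR- cells, with cell cycle means of 7.06 on BALB/c replicate 1 and 7.82 on B6 replicate 2. The part of the cell cycle level in the result was not tested.

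Some costimulatory and early T cell genes also had the smaller gap in BALB/c. Of 29 costimulatory and inhibitory receptors and ligands, 7 fell and 4 rose in BALB/c, and 9 fell and 2 rose in B6. Over all genes 3.02% fell and 3.97% rose in BALB/c, and 3.23% fell and 2.77% rose in B6. An interaction p under 0.05 was positive for 6 and negative for 1, against 2.48% and 1.69% of all genes. The positive members numbered 3 to 8 under the alternatives, and the median interaction was 0.23. Cd28, the main costimulatory receptor of T cells, was at 8.22, 8.07 and 8.33 in BALB/c and 6.86 and 6.76 in B6 iNKT17 cells, with ROR- arrays between 8.15 and 8.58 in both strains. Its gap was -0.29 in BALB/c (adjusted p = 0.21), it fell by 1.45 in B6 (adjusted p = 1.15e-04), and the interaction was 1.17 ± 0.18 (adjusted p = 0.063).

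Other members differed on the ROR- side. Btla, an inhibitory receptor, was at 6.83 and 6.87 in B6 and 5.21, 5.35 and 5.47 in BALB/c ROR- cells (interaction 0.82 ± 0.24), and Tigit had 0.85 ± 0.22. Tnfsf8, the CD30 ligand gene, was the negative member, at 6.36 and 5.68 in B6 iNKT17 cells and 4.67, 4.56 and 4.70 in BALB/c iNKT17 cells (interaction -1.09 ± 0.26). None of these 3 passed the adjusted threshold of the interaction.

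Among 18 naive, memory and early T cell genes, 10 fell in BALB/c and 11 in B6 (3.02% and 3.23% of all genes). In either strain 0 rose (3.97% and 2.77% of all genes). The median interaction, 0.15, was small. An interaction p under 0.05 was positive for 4 members and negative for 1, against 2.48% and 1.69% of all genes. Satb1, a chromatin organiser of developing T cells, fell by 2.40 in B6 and 1.1 in BALB/c, with 6.74 and 7.07 in B6 iNKT17 cells and 8.72, 8.35 and 8.66 in BALB/c iNKT17 cells. Zbtb16, the PLZF factor that directs iNKT development, had a gap of -0.11 in BALB/c and fell by 0.62 in B6 (adjusted p = 0.041), with an interval of 0.07 to 0.96. Cd27, a TNF receptor family costimulator lost by type 17 cells, fell by 3.55 in BALB/c and 4.5 in B6.

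Other genes had the larger gap in BALB/c. Cd4 fell by 4.20 in BALB/c and 3.43 in B6, from ROR- levels of 8.31, 8.47 and 7.82 in BALB/c and 7.30 and 7.33 in B6 to iNKT17 levels between 3.81 and 4.09 in both. The iNKT17 arrays of the strains overlapped and the ROR- arrays did not. Themis, a regulator of receptor signalling in thymocytes, fell by 2.48 and 1.83, and Slamf6, a SLAM family receptor needed for iNKT selection, by 4.52 and 3.45. Their intervals lay below 0, at -1.32 to -0.22 for Cd4, -1.26 to -0.05 for Themis and -2.00 to -0.14 for Slamf6, and none passed the adjusted threshold.

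Of 17 egress and residency genes 7 fell and 1 rose in BALB/c and 3 fell and 1 rose in B6. Over all genes 3.02% and 3.23% fell, and 3.97% and 2.77% rose. The median interaction was -0.12, with 2 negative members at an interaction p under 0.05 (1.69% of all genes). Leaving out replicate 2 of the BALB/c ROR- cells, 4 genes fell in each strain, 1 member was negative and the median interaction was 0.03. Leaving out replicate 2 of the BALB/c iNKT17 cells, 4 again fell in each strain, 0 members were negative and the median was -0.01. Without B6 ROR- replicate 2 the negative members were also 0, so the difference between strains did not hold in this list. Klf3, a Kruppel-like factor, fell by 2.45 in BALB/c and 1.91 in B6, and Cxcr4, the receptor for the bone marrow chemokine CXCL12, fell by 2.13 in BALB/c (adjusted p = 0.0011) with a B6 gap of -1.04 (adjusted p = 0.14). S1pr1, the sphingosine 1-phosphate receptor that lets lymphocytes leave tissue, fell by 3.82 and 4.26 and was not resolved (interval -0.63 to 1.51).

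Cxcl3, a neutrophil-attracting chemokine, had the most negative estimate named here. It was at 9.14 and 9.35 in B6 iNKT17 cells and 4.46, 5.95 and 4.82 in BALB/c iNKT17 cells, against 3.01 to 4.5 in ROR- cells. It rose in both strains, by 5.02 in B6 and 1.87 in BALB/c (interaction -3.15 ± 0.51, adjusted p = 0.066). Epas1, the hypoxia-inducible factor HIF-2 alpha gene, was the reverse case, with 6.83, 6.32 and 6.38 in BALB/c iNKT17 cells and 4.40 to 5.30 elsewhere (interaction 1.52 ± 0.24, adjusted p = 0.066).

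Most interferon-stimulated genes had no called gap in either strain. Of 35 members 8 fell, 1 rose and 26 were not called in BALB/c, and 10 fell and 25 were not called in B6 (3.02% and 3.23% of all genes fell). The median gaps were -0.27 and -0.49, 5 members had a positive interaction p under 0.05 (2.48% of all genes), and 0 passed the adjusted threshold. The list mean was 6.82 and 6.78 in B6 ROR- cells and 6.63, 6.33 and 6.26 in BALB/c ROR- cells, with iNKT17 arrays between 5.84 and 5.97. Ifit1 had the smallest p of the list, with a fall of 1.2 in B6, a BALB/c gap of -0.30 and an interaction of 0.89 ± 0.20.

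The Ifitm genes, restriction factors against virus entry, had larger but less certain differences. Ifitm1 was at 7.21, 5.05 and 4.82 in BALB/c ROR- cells and 7.66 and 7.76 in B6 ROR- cells, so that BALB/c ROR- replicate 1 alone came near the B6 level. Ifitm1 fell by 2.07 in BALB/c and 3.85 in B6 (interaction 1.79 ± 0.77). Without that array 8 list members had a positive p under 0.05, and without B6 ROR- replicate 1 or B6 iNKT17 replicate 2 there were 2.

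**Figure D5:**
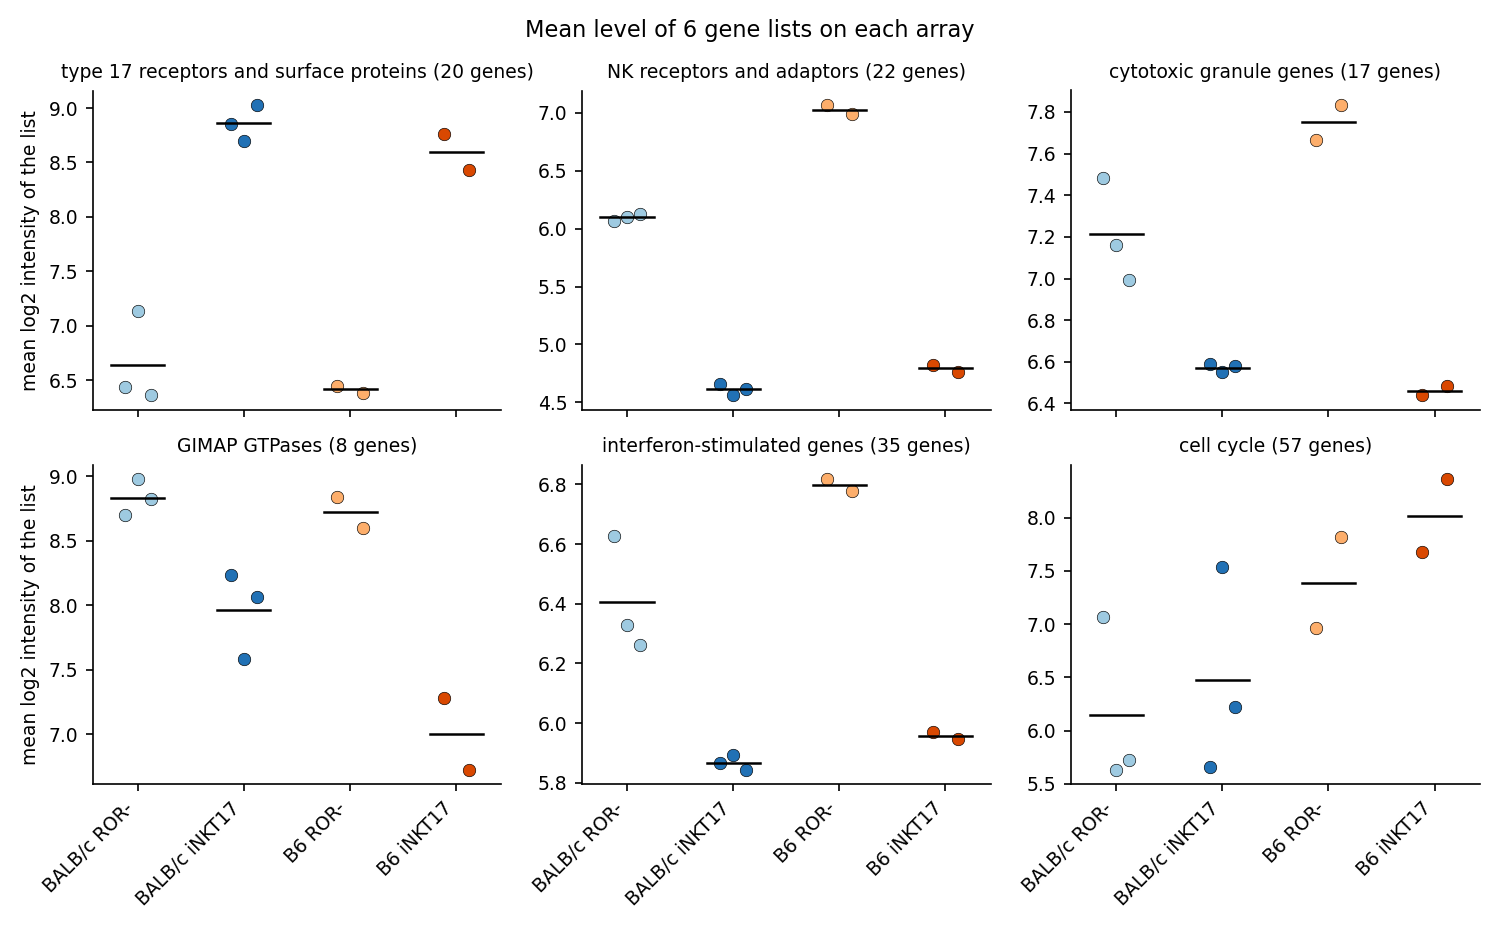
Mean log2 intensity of 6 gene lists on each of the 10 arrays, with the group mean as a bar; vertical axes differ between panels and do not start at 0. The NK list separates the strains most widely in ROR- cells (7.07 and 6.99 in B6, 6.07 to 6.13 in BALB/c), the GIMAP list separates them in iNKT17 cells, and the cell cycle list spreads widely within groups.

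In the housekeeping and metabolic lists few genes were called, and most of the counts lay near or under the shares over all genes (3.97% rising and 3.02% falling in BALB/c, 2.77% and 3.23% in B6). Of 47 oxidative phosphorylation genes 1 rose in BALB/c and 0 in B6, and 0 had an interaction p under 0.05. Proteasome subunits (29 genes) gave 0 calls in both strains, with 0 interaction p under 0.05. Of 47 cytosolic ribosomal protein genes 1 fell in BALB/c and 0 in B6, with a median interaction of 0.11. The glutathione and redox list had more calls, with 4 of 25 genes rising and 1 falling in BALB/c and 1 rising in B6. Sterol synthesis genes, which make cholesterol, had positive median gaps of 0.53 and 0.59 with 18 of 19 genes of the same sign in both strains, but of these 1 fell in BALB/c and 2 rose in B6 at the threshold. Neither list had an interaction p under 0.05. Of 31 lysosome genes 3 rose and 3 fell in each strain, and 4 had an interaction p under 0.05 (4.17% of all genes). Heat shock proteins, MHC class I genes, actin and motility genes and the unfolded protein response had no member at an interaction p under 0.05 in this fit.

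The cell cycle list, with 57 tested genes, had 0 calls in every comparison by limma and 0 interaction p under 0.05. Its median gap was 0.37 in BALB/c and 0.80 in B6, but its arrays spread from 5.63 to 7.06 in BALB/c ROR-, from 5.65 to 7.54 in BALB/c iNKT17, and lay at 6.96 and 7.82 in B6 ROR- and 7.68 and 8.36 in B6 iNKT17 cells. The median interaction of -0.33 ranged from -0.98 to 0.11 when single arrays were left out, so its sign was not settled. Mki67, the Ki-67 gene, ran from 6.51 to 8.99 in BALB/c ROR- cells.

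Some lists of markers of other cells kept nearly level means. They lay between 4.54 and 4.92 for B cells, 4.49 and 4.78 for macrophages, monocytes and dendritic cells, 3.82 and 3.97 for neutrophils and mast cells, and 4.27 and 4.48 for epithelial and stromal cells, over all 10 arrays. Further marker lists differed between the cell types. Gamma-delta T cell genes had group means of 7.29 in BALB/c and 6.93 in B6 iNKT17 cells, against 6.09 and 5.88 in ROR- cells. Immature thymocyte markers had 5.55 and 5.43 against 6.29 and 6.12, and alpha-beta T and iNKT genes 7.62 and 7.14 against 8.86 and 8.39. Pax5, the B cell commitment factor, had group means of 4.04 to 4.22, and Csf1r, the macrophage growth factor receptor, of 3.65 to 3.82. Other members of the B cell and macrophage lists were not low, or not level. Cst3, the cystatin C gene, had group means of 9.94 to 10.32 and Cd68 of 5.79 to 6.30. Cd79b, a B cell receptor subunit gene, rose in iNKT17 cells of both strains, with means of 6.35 in BALB/c and 6.63 in B6 against 4.5 and 4.95 in ROR- cells. Ighm was at 9.11 and 9.0 in B6 ROR- cells and 7.52 to 8.35 elsewhere, and Aif1 at 7.36, 6.42 and 7.54 in BALB/c iNKT17 cells and 3.92 to 5.98 elsewhere.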

How the data were processed

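RNA of 10 samples was read on Affymetrix whole-transcript mouse arrays. The authors deposited a table of processed values taken here as log2 intensities; the submitters' processing notes name the R package oligo, and its version is not given in the sources used here, nor are the summarisation, the normalization and the log base. No further scaling was applied to the deposited values. Gene names are those of the platform annotation, which can be old: of 41345 probe sets, 23521 had 1 gene symbol, 1814 several and 16010 none given there. Names came only from probe sets with 1 symbol, and for the 1082 genes with more than 1 such probe set the brightest by its mean was kept. Genes above the 30th percentile of the named values on at least 2 arrays were tested (16516 of 22180).

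The 10 arrays were fitted with 1 mean per group in limma 3.58.1 in R 4.3.3 (6 residual and 4.44 prior degrees of freedom). Benjamini-Hochberg adjustment ran over all tested genes, and calls used an adjusted p under 0.05. Intervals are limma's 95% confidence intervals. The script was tested on simulated data with known changes. Precision is limited by having 2 or 3 arrays in a group. Arrays of a group correlated with r between 0.974 and 0.986, and array medians lay between 4.10 and 4.30. BALB/c ROR- replicate 3 had the lowest array weight, 0.389.

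The members, the 54 gene lists (45 functions, 9 cell marker lists) and the comparison were chosen with earlier results of these data known. The rule for named genes took the genes past the interaction threshold without clone names, for each list the members with the highest and lowest interaction among those with a called 2-fold gap and up to 3 kept members, and a set of anchor genes. Other members of the lists were named after their values were seen. Lists are described by counts and medians, with no test of the list. Promoter sequences came from RefSeq (GRCm38.p6). Alternatives were all 12 arrays in the fit, other scalings and filters, the mean of probe sets, a robust fit, array weights, the replicate number as a block and leaving out each array.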

Additional observations from a re-analysis of the deposited data

Results flagged for a closer look

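The iNKT17 minus ROR- difference itself differed between the strains, by the interaction term of the limma fit, in 13 genes. The interactions (BALB/c gap minus B6 gap, log2) were 2.86 for Gpnmb, 3.56 for Klra9, 1.67 for Klri2, 1.62 for Ifit1bl1, 1.49 for Sult5a1 and 1.41 for Fcrl1, in all of which B6 ROR- cells were the high group. They were 1.57 for Serpinb6b, 1.53 for Mmp14 and 1.88 for BC064078. On the negative side they were -1.91 for Cd2, -2.03 for Cd8a, -2.29 for Frmd5 and -1.45 for Rnase6. Gpnmb kept its call under 16 of 19 alternatives and Sult5a1 under 8. Sult5a1 and Ifit1bl1 had 2 of the 4 groups below the dim level, and Klra9 and Klri2 had 3.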

How the results depend on the processing

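The interaction count of 13 became 23 with array weights and lay between 12 and 17 under the other alternatives that keep all 10 arrays. Leaving out 1 array at a time, it lay between 0 and 19. The same step gave 747 to 1124 genes called in BALB/c, 516 to 1077 in B6, 509 to 542 with a mean gap of at least 2-fold, 146 to 201 kept within 2-fold and 111 to 149 whose interval excluded 0. Where a B6 group was left with 1 array, its spread was assumed to be like that of the other groups. The 13 called interactions kept their sign under all 19 alternatives. Gimap4 passed the threshold with all 12 arrays in the fit (adjusted p = 0.042), with array medians centred (0.049), in a robust fit with trend (0.022) and with array weights (0.032), and its adjusted p ran up to 0.25 without B6 ROR- replicate 1. Signal limits the low genes: 46 of the 521 genes with a mean gap had a group below the dim level.

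The replicate numbers were checked for pairing. Correlations of the deviations of same-numbered arrays, within and between strains, ran from -0.46 to 0.47. Between the iNKT17 and ROR- arrays of a strain they were -0.46, -0.34 and 0.14 in BALB/c and 0.47 in B6. With 2 arrays in each B6 group, both replicate numbers give the same value. The numbers were not taken as pairs, and whether the B6 arrays were paired was not tested. With the replicate number as a block 12 interactions, 1091 genes in BALB/c and 956 in B6 were called, 204 genes were kept and 131 excluded 0.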
